A study of Mus musculus with 3 samples.

Results

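ILC1-like cells were looked for among NK1.1+NKp46+ cells sorted from lung and blood, and 194 of 21113 cells met the definition used. A cell was called ILC1-like when it held at least 1 count of at least 3 of 5 genes, Il7r, Cd200r1, Cxcr6, Tmem176a and Tmem176b. The members were thus chosen by their counts of these genes. They were compared with the 19516 cells that held no count of any of the 5. The 3 libraries came from wild-type female C57BL/6 mice of 9 weeks. The naive mice were untreated, and the others were taken 6 h or 14 days after 100000 PyMT cells, a mammary tumour line, were injected intravenously. The labels name no other allele or agent and no number of mice per library. A figure legend of the paper gives a higher dose than its methods and the labels, and 5 mice per group. Live CD45+ cells negative for lineage markers, among them CD3ε, CD5, TCRβ, Ly6G and Ter119, were sorted, so T cells with surface receptor, neutrophils and red cells should largely be absent. Lung and blood of each condition shared a library, and hashtag antibodies told the tissues apart. Cells carry no label of the mouse they came from, so each condition is 1 sample and differences between conditions were not tested. ILC1-like cells were not tested against cells with none, since the rule chose them in the same contrast. Lung and blood were paired within the 3 libraries, and that difference was tested across them. Intervals are exact 95% intervals (binomial for shares, Poisson for levels and conditional for ratios). They cover counting error only, and the spread between cells makes them too narrow.

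ILC1 belong, together with NK cells, to the group 1 innate lymphoid cells, and share the receptors NK1.1 and NKp46 and the transcription factor T-bet with them. They are known as tissue-resident cells that depend little on Eomes, carry the integrin CD49a and the death ligand TRAIL, and kill less through perforin and granzymes than circulating NK cells do. Of the genes that defined the cells, Il7r encodes the interleukin-7 receptor chain, Cd200r1 an inhibitory receptor, Cxcr6 a chemokine receptor linked to residence in tissue, and Tmem176a and Tmem176b a pair of related membrane proteins. The label rests on RNA counts of these genes alone, without a surface stain.

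Tmem176a and Tmem176b lie head to head on chromosome 6 (GRCm38), and their nearest RefSeq transcript starts are 109 bases apart, at 48841483 and 48841374. Their counts were found together in most cells: of 154 ILC1-like cells with Tmem176a, 140 (90.9%) also held Tmem176b. Such a share was not particular to the pair. Il7r, on chromosome 15, was found in 138 (89.6%) of the same 154 cells, and Tmem176b in 167 of all 194 ILC1-like cells. The rule favours such joint detection, so the shares are a description. The sequences upstream of Cxcr6, a gene of the rule, and of Itga1 (CD49a), a gene outside it, are shown because the levels of these genes in lung and blood are followed below. They come from RefSeq on GRCm38.p6, at chr9:123806227-123806474 on the plus strand and chr13:115101965-115102214 on the minus strand, end just before the annotated transcript start, and were searched on both strands for TGTGGT (a Runx motif), GGTGTGA (a T-box motif) and AGGTCA (a ROR half-site). Capitals mark the match found, the Runx motif read from the other strand.
Cxcr6: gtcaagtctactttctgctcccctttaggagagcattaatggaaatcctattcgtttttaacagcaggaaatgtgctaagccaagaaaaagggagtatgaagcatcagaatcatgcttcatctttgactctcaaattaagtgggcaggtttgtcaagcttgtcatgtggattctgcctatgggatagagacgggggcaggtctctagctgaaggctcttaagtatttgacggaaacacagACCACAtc
Itga1: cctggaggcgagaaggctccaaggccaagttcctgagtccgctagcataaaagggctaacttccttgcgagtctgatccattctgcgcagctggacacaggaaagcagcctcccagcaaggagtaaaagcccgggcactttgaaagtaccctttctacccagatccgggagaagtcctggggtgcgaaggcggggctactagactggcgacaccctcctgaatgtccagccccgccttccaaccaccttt
Among 32851 windows of 250 bases upstream of RefSeq genes, 14.0% held the Runx motif, 3.33% the T-box motif and 14.0% the ROR half-site. A match is a description of the letters, not of binding.

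ILC1-like cells were rare in every tissue and condition and made up a larger share 14 days after tumour cell injection. In lung they were 18 of 3676 cells (0.490%, 95% CI 0.290 to 0.773) in naive mice, 30 of 4680 (0.641%, 0.433 to 0.914) at 6 h and 63 of 3575 (1.76%, 1.36 to 2.25) at 14 days. In blood they were 12 of 4367 (0.275%, 0.142 to 0.480), 20 of 2746 (0.728%, 0.445 to 1.12) and 51 of 2069 (2.46%, 1.84 to 3.23). The 14-day intervals lay above the naive and 6 h intervals in both tissues, and with 1 library per condition the spread between mice is unknown.

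Depth is given beside the shares, and its part in them was not tested beyond thinning. The median cell with none of the genes held 5854, 6951 and 6823 UMIs in naive, 6 h and 14-day lung and 6307, 7369 and 7478 in blood. This median was lowest in naive mice in both tissues, and highest at 6 h in lung and at 14 days in blood. After each cell was thinned to 3000 UMIs (86, 40 and 38 shallower lung cells and 75, 20 and 6 blood cells were left out), 6, 13 and 27 lung cells and 7, 7 and 28 blood cells remained. The thinned shares were 0.167% (0.0614 to 0.363), 0.280% (0.149 to 0.479) and 0.763% (0.504 to 1.11) in lung and 0.163% (0.0656 to 0.336), 0.257% (0.103 to 0.528) and 1.36% (0.904 to 1.96) in blood. The order of the conditions was the same, and every share was lower.

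The ILC1-like cells of 14-day lung were deeper than their neighbours. Their median was 11108 UMIs against 6823 in cells with none of the genes, and 14 of the 63 were among the 5% of cells with most UMIs, a place where doublets gather. In the other groups the medians of ILC1-like cells lay between 6740 and 8212. Without the top 5% of cells by UMIs in each group, the 14-day share was 1.44% in lung and 2.44% in blood, against 0.458% and 0.265% in naive mice.

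**Figure D1:**
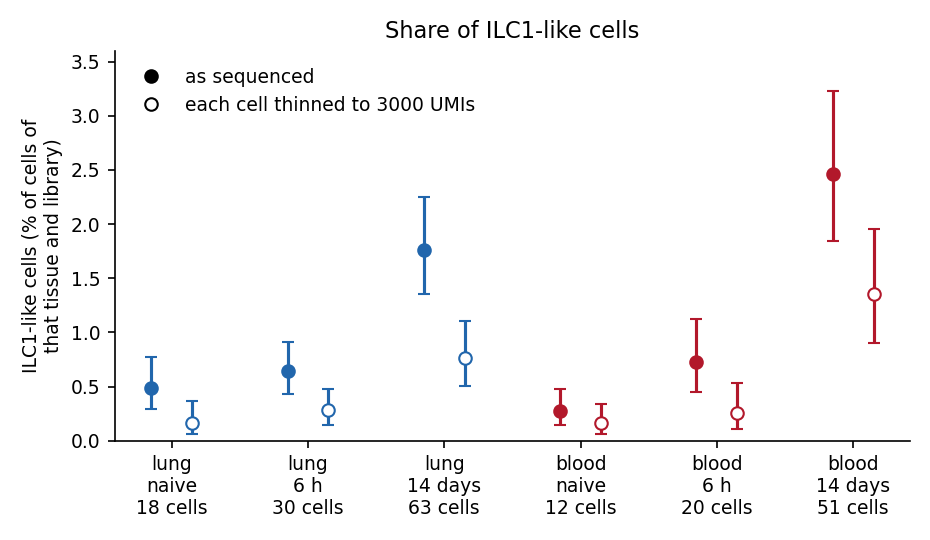
Share of ILC1-like cells among tissue-assigned cells (percent) in lung and blood for each condition, with exact binomial 95% intervals. Filled points are counts as sequenced and open points are after thinning each cell to 3000 UMIs. The 14-day points (1.76% in lung and 2.46% in blood as sequenced) lie above the others at both depths.

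The values of the 5 genes chose the cells and are given as a description. Il7r was found in the most, 176 of 194, and was at 1091, 647 and 528 CPM (the gene's share of all UMIs summed over the cells of a group, scaled to a common total) in naive, 6 h and 14-day lung and at 568, 530 and 512 CPM in blood. Cxcr6 was at 102 CPM (80.5 to 128) in 14-day lung, where 31 of 63 cells held it, and at 440 CPM (379 to 507) in 14-day blood, where 45 of 51 did. Tmem176b was at 405 CPM in 14-day lung and 267 CPM in 14-day blood. Differentiated NK cells with a count of both Klrg1 and Cx3cr1, which should lack these genes, showed the background: among them 1.69% held Il7r in naive lung and 2.61% in 14-day lung, where their median depth was 6278 and 7508.5 UMIs, against 100% and 95.2% of ILC1-like cells. In naive and 14-day lung, 0.423% and 2.41% of them held Tmem176a and 0.846% and 2.61% Tmem176b. Cd200r1 (2.54% and 1.81%) and Cxcr6 (0.846% and 0.602%) went the other way in lung. In blood each of the 5 genes was found in more of these NK cells at 14 days than in naive mice. The shares were 1.33% and 2.09% for Il7r, 1.33% and 2.61% for Cd200r1 and 1.09% and 1.91% for Cxcr6. For Tmem176a they were 0.847% and 1.22%, and for Tmem176b 1.33% and 2.09%. The median depth of these blood cells was 6594 and 8085 UMIs. Of these NK cells, 2 of 709, 1 of 896 and 3 of 498 in lung and 0 of 826 (up to 0.363%), 1 of 537 and 5 of 575 in blood passed the rule itself. In barcodes with 1 to 100 UMIs, each of the 5 genes was higher in the 14-day than in the naive library. Cxcr6 there was at 8.54 and 2.55 CPM. The part of this background in the shares was not tested.

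Cells just below the threshold were more numerous than cells just above it. Exactly 2 of the 5 genes were found in 25, 35 and 58 cells of naive, 6 h and 14-day lung, and exactly 3 in 11, 14 and 24. In blood the numbers were 29, 22 and 39 with exactly 2 genes and 7, 10 and 19 with exactly 3. The levels of several genes outside the rule ran with the number of genes found, though not each at every step. In lung cells summed over the 3 libraries, Inpp4b was at 51.6, 146, 334, 751, 1030 and 1442 CPM in cells with 0 to 5 of the genes. Gzma ran the other way, at 11287, 7639, 5186, 1779, 604 and 273 CPM. Eomes was at 260, 214, 99.8, 32.9, 21.3 and 30.3 CPM, with overlapping intervals from 3 genes on. The sums mix the conditions unevenly, since 14-day cells were 3230 of the 11029 lung cells at 0 genes and 12 of the 20 at 5. Within single libraries, Inpp4b in lung was at 10.2, 82.1, 206, 339, 841 and 1534 CPM in naive, at 15.5, 46.6, 212, 1144, 1065 and 1991 CPM at 6 h and at 137, 285, 439, 723, 1026 and 1298 CPM at 14 days. Gzma in 14-day lung was at 10106, 6093, 4753, 1516, 554 and 120 CPM. In the other libraries Gzma had breaks in order. With 3, 4 and 5 genes it was at 3434, 60.1 and 159 CPM in naive lung and at 1063, 813 and 1081 CPM at 6 h. Lung cells with exactly 2 genes lay between the groups for Inpp4b, Gzma and Eomes. Breaks in order were found for other genes and in blood as well. Klra4 in lung was at 1233, 624, 177, 35.1, 74.5 and 282 CPM, Itga1 in lung at 26.7, 51.5, 148, 96.6, 183 and 273 CPM, and Inpp4b in blood at 16.2, 65.2, 206, 540, 1180 and 927 CPM.

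**Figure D2:**
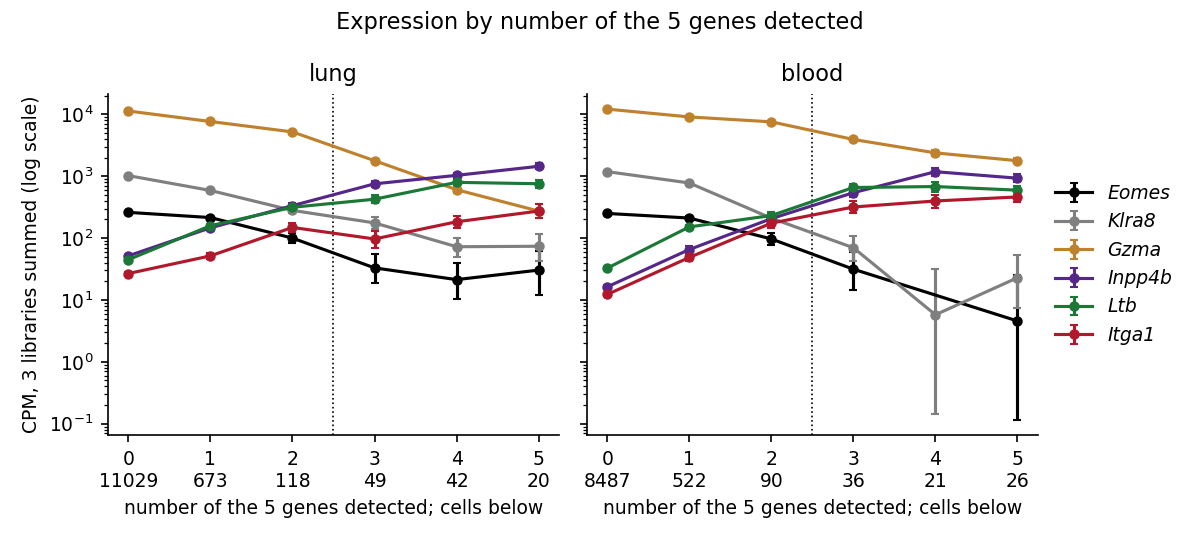
Summed level (CPM) of genes outside the rule in cells with 0 to 5 of the 5 defining genes, UMIs of the 3 libraries summed, for lung and blood, with exact Poisson 95% intervals. The dotted line marks the threshold of 3 genes, and Eomes has no point at 4 genes in blood because no count was found there. Inpp4b in lung goes from 51.6 to 1442 CPM and Gzma from 11287 to 273 CPM.

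Most ILC1 genes that the rule did not use were at higher levels in the ILC1-like cells. A gene was called when it differed at least 2-fold the same way in all 3 libraries and reached 50 CPM in the higher group, by means that weight the libraries equally. Of 4004 genes tested in lung, 84 (2.10%) were called higher, and of 4135 in blood, 100 (2.42%). The 11 unused ILC1 markers are described by their values only, since 8 of the 10 tested in lung and all 9 tested in blood reached the floor only through the ILC1-like cells, where a higher call was close to fixed. The list was also drawn up with earlier results of these data known, so it is no independent evidence for the label. Il21r was tested in both tissues and not called in either, at 82.5 against 44.5 CPM by mean in lung and 50.06 against 24.9 CPM in blood.

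Inpp4b, a phosphatase that limits phosphoinositide signalling, was at 713, 1219 and 980 CPM in ILC1-like cells of naive, 6 h and 14-day lung and at 591, 688 and 931 CPM in blood. Cells with none of the genes were at 10.2, 15.5 and 137 CPM of Inpp4b in lung and at 17.2, 19.2 and 10.6 CPM in blood. The groups did not overlap, and Inpp4b was found in 14 of 18 to 18 of 20 cells of each group, although a single cell gave 39.2% of the naive lung counts.

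Itga1, which encodes CD49a, was at 182, 130 and 177 CPM in lung and at 375, 219 and 449 CPM in blood, against 10.99, 9.95 and 63.0 CPM and 12.2, 12.9 and 11.4 CPM in cells with none. The ratio for Itga1 was smallest in 14-day lung, 2.81-fold, where the other cells were highest. Rora, a nuclear receptor needed for several innate lymphoid lineages, was at 671, 795 and 602 CPM in lung and at 409, 140 and 133 CPM in blood, 3.09-fold to 12.5-fold above cells with none. Ltb (lymphotoxin beta) was 10.8-fold higher in lung and 20.2-fold in blood, Tnfsf10 (TRAIL) 6.83-fold and 17.8-fold, and Cxcr3, a receptor for interferon-induced chemokines, 7.98-fold and 10.9-fold. Gpr183, an oxysterol receptor, was 43.4-fold higher in lung. In blood Gpr183 was at 170, 30.5 and 4.68 CPM in naive, 6 h and 14-day cells and was not called. Zfp683 (Hobit), the transcription factor linked to ILC1 of the liver, had no count in naive ILC1-like cells of either tissue and was at 3.72 and 5.38 CPM in 6 h and 14-day lung. In 14-day blood Zfp683 was at 44.5 CPM, in 15 of 51 cells.

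Most listed genes of NK cell maturation and killing were at lower levels in the ILC1-like cells. Of 16 markers, 11 were called lower in lung (median log2 ratio -2.46, among 54 called genes or 1.35% of all tested) and 14 in blood (median -2.26, among 70 or 1.69%), and none was called higher. All 16 were tested, 6 in lung and 7 in blood only through the cells with none, where a lower call was close to fixed. The counts are thus a description. The 16 genes summed to 3529 CPM by mean in lung ILC1-like cells against 20869 in cells with none. In blood the sums were 4754 and 22799 CPM. Eomes, the transcription factor that separates NK cells from ILC1, was at 42.0, 37.2 and 21.5 CPM in lung and at 34.1, 18.3 and 9.36 CPM in blood, against 201 to 297 CPM in cells with none. A count of Eomes was found in 3 of 18, 5 of 30 and 11 of 63 lung cells and in 2 of 12, 2 of 20 and 3 of 51 blood cells. Most cells thus showed no Eomes count at these depths. After thinning to 3000 UMIs, Eomes was found in 3.70% of 27 ILC1-like cells of 14-day lung and 46.5% of the cells with none, and in 7.14% of 28 and 39.8% in 14-day blood.

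Gzma (granzyme A) was at 2175, 951 and 793 CPM in lung and 2363, 1846 and 3308 CPM in blood, 8.59-fold and 4.96-fold below cells with none by mean. Prf1 (perforin) was 4.96-fold lower in lung and 3.93-fold in blood. The Ly49 receptor gene Klra4 was at 90.9, 271 and 40.3 CPM in lung and at 0, 18.3 and 23.4 CPM in blood, against 1168 to 1496 CPM in cells with none. A single cell gave 89.0% of the Klra4 counts in 6 h lung. Klra genes are near copies of each other, and reads may be split between them.

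Ncr1 (NKp46), Klrb1c (NK1.1) and Ptprc (CD45), the genes of the sort gate, had list medians of -0.51 (lung) and -0.19 (blood) over cells with none. Their sum was 3122 CPM by mean in lung ILC1-like cells against 4509 in cells with none, and 4246 against 5384 CPM in blood. The gap was wider in 14-day lung, at 2142 against 3812 CPM. Tbx21 (T-bet) was at 409 CPM in lung ILC1-like cells and 333 in cells with none, and at 336 and 436 CPM in blood. Of 19 lineage transcription factors tested in lung, 5 were called higher (Rora, Tcf7, Ikzf2, Ahr and Maf, against 2.10% of all genes) and 3 lower (Eomes, Prdm1 and Irf8, against 1.35%). Of 17 in blood, 3 were called higher (Rora, Ikzf2 and Maf, against 2.42%) and 3 lower (Eomes, Zeb2 and Irf8, against 1.69%). Of these factors, 5 in each tissue reached the floor only through the ILC1-like cells. Another 3 in lung and 2 in blood reached it only through the cells with none. The direction of a call was close to fixed for them, so the counts are a description and no test against the shares of all genes. Ikzf2 (Helios) was 10.5-fold higher in lung and 9.41-fold in blood. Of the NK receptors and checkpoints, 4 of 18 tested in lung and 4 of 17 in blood were called higher, Klrb1b, Cd226 and Cd160 in both. More were called lower, 6 in lung (Klra1, Klra3, Klra4, Klra7, Klra8 and Klra9) and 7 in blood, these and Klri2. The shares of all genes are those given above. In lung 2 of the 18 reached the floor only through the ILC1-like cells and 1 only through the cells with none. In blood 4 of the 17 reached it only through the cells with none, so these counts are a description too. Cd226 (DNAM-1), an activating receptor, was 6.81-fold higher in lung and 6.96-fold in blood. Ctla4, an inhibitory receptor of activated T cells, was called in lung, at 146 against 4.85 CPM, and was at 2.81 against 1.73 CPM in blood. Of the effector molecules, Tnfsf10 and Ltb were called higher in both tissues, Xcl1 in lung and Gzmc in blood, while Gzma, Prf1 and Ccl4 were called lower in both. In each tissue 3 of the 14 tested reached the floor only through the ILC1-like cells, where a higher call was close to fixed. A single cell gave all 12 Gzmc counts of naive blood and 92.9% of those of 6 h blood.

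**Figure D3:**
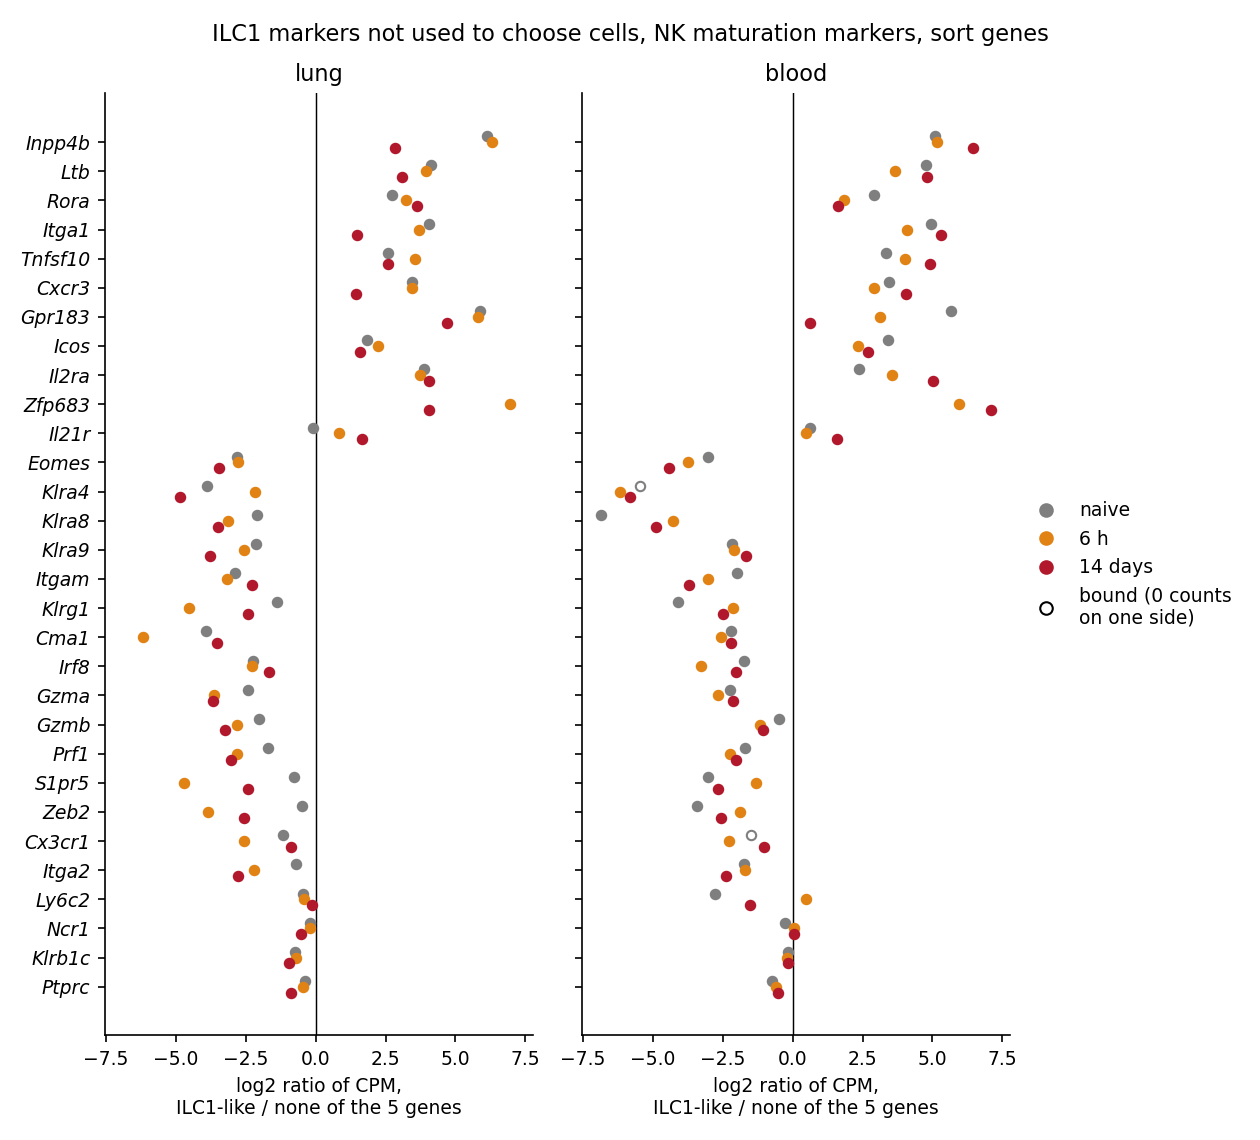
Log2 ratio of ILC1-like cells over cells with none of the 5 genes for genes outside the rule, in lung and blood, with 1 point per library. Open points are bounds where one side had no count, set to 3 counts. Inpp4b, Ltb, Itga1 and Rora lie above 0 in all 6 groups of cells, and Eomes, Gzma and Prf1 below 0.

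Genes with the largest ratios in both tissues included Trgc4, Ckb, Cd200r2, Podnl1, Inpp4b and Acpp. Trgc4, a T cell receptor gamma constant gene whose transcript innate lymphocytes can carry, was at 147, 167 and 91.4 CPM in lung and at 148, 183 and 222 CPM in blood, and at 3.22 CPM or less in cells with none. Ckb (creatine kinase B) was at 56.0, 66.9 and 96.8 CPM in lung and at 148, 91.4 and 190 CPM in blood, and at 4.99 CPM or less in cells with none. Cd200r2 is a close relative of Cd200r1, and reads of the pair may be shared. Lowest in both tissues were Khdc1a, Phactr3, Klra1, Klra4, Klra7, Klra8 and Eomes. In blood the list of the highest also held the metalloproteases Adam19, Adam12 and Mmp9. Mmp9 was at 11.4, 48.7 and 131 CPM in naive, 6 h and 14-day blood and at 3.72 CPM or less in lung. Of the genes called higher, 50 were shared, which is 59.5% of the lung and 50% of the blood genes. Of those called lower, 32 were shared (59.3% and 45.7%), and 0 genes were called in opposite directions. Lung and blood cells came from the same libraries, so the overlap is not one of independent samples.

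Markers of other cell types were counted in the same cells. Of the ILC3 markers, Il22, Il17a, Il23r and Il1r1 had no count in any group, and Kit and Ahr were called higher in lung. These 2 were the only ones tested in lung. Both reached the floor only through the ILC1-like cells, where a higher call was close to fixed. Of 7 ILC2 markers, Gata3 gave 90.9 to 154 CPM of a summed 90.9 to 159 CPM. B cell markers summed to 7.02 CPM or less. T cell markers, 16 genes in the files, summed to 1280, 1416 and 993 CPM in lung and to 1363, 1200 and 2192 CPM in blood, against 732 to 809 CPM in cells with none. Trgc4, the T cell receptor gamma constant gene given above, was not among these 16 genes and is not in the sums, tested counts or calls. Trbc1 or Trbc2, which NK cells also transcribe, was the most abundant listed T cell marker in each group. Cd3g and Bcl11b were called higher in blood, where 3 of the 7 T cell markers tested reached the floor only through the ILC1-like cells. Cd3g was at 204 CPM in 14-day blood, in 15 of 51 cells. At least 2 of Cd3e, Cd3d, Cd3g and Trac were found in 1 naive lung, 4 14-day lung and 4 14-day blood ILC1-like cells and in none of the others. Without cells that held them, the 14-day shares were 1.69% in lung and 2.31% in blood. Whether T cells contribute to the blood values beyond that was not tested.

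Myeloid and dendritic markers differed most between groups in lung. The MHC class II genes H2-Eb1 and H2-Ab1 had the largest and the third largest log2 ratio among genes called higher in lung ILC1-like cells over cells with none. H2-Eb1 was at 102 against 0.73 CPM by mean (log2 ratio 7.12) and H2-Ab1 at 96.8 against 1.13 CPM (6.42), although H2-Ab1 was found in 1, 4 and 15 cells of naive, 6 h and 14-day lung. The sum of the list was 1512 to 1942 CPM in the other 5 groups, most of it Fcer1g, which NK cells express. In 14-day lung it was 2785 CPM, of which Fcer1g gave 1320. The rest was largely MHC class II. Cd74, the invariant chain, was at 0, 44.6 and 696 CPM in naive, 6 h and 14-day lung and at 0, 0 and 4.68 CPM in blood. H2-Ab1 was at 14.0, 22.3 and 254 CPM in lung, and 1 cell gave 48.7% of its 14-day counts. At least 2 UMIs of H2-Aa, H2-Ab1 and Cd74 were found in 13 of 63 cells of 14-day lung (20.6%, 11.5 to 32.7), in 4 of 30 at 6 h, in 1 of 18 in naive lung and in 0 of 51 in 14-day blood (up to 5.88%, the limit that a count of 0 allows). The median depth of these 13 cells was 13901 UMIs. A UMI of the macrophage genes Lyz2, Csf1r or Cd68 was found in 2 of the 13. Without cells that held any count of the 3 MHC genes, the 14-day lung share was 1.27%. Whether doublets with antigen-presenting cells gave these counts was not tested.

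ILC1-like cells varied among themselves in Itga1 and Rora, neither of which chose them. In lung, cells with counts of both, Rora alone, Itga1 alone and neither numbered 6, 9, 1 and 2 in naive, 13, 15, 2 and 0 at 6 h and 28, 20, 10 and 5 at 14 days. In blood they numbered 5, 4, 3 and 0 in naive, 6, 4, 4 and 6 at 6 h and 18, 2, 27 and 4 at 14 days. Itga1 without Rora was thus the most frequent state in 14-day blood (52.9%, 95% CI 38.5 to 67.1) and was found in 15.9% (7.88 to 27.3) of the 14-day lung cells. The median depth of cells with both genes, Rora alone, Itga1 alone and neither was 13295.5, 9511.5, 9825.5 and 12572 UMIs in 14-day lung and 9199.5, 7176, 7571 and 7183 UMIs in 14-day blood. Cells with both were deepest in both tissues, and the part of depth in the split was not tested.

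**Figure D4:**
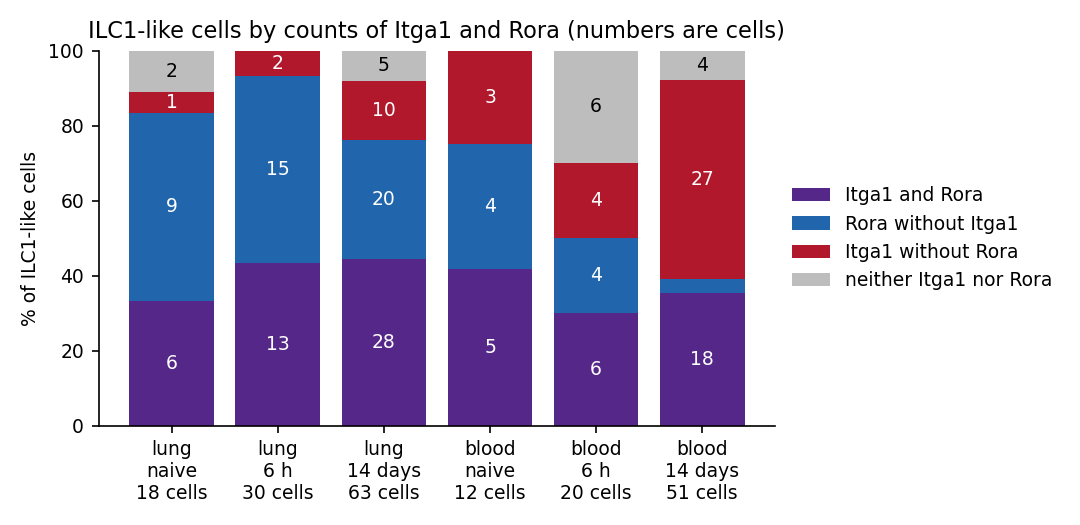
Share of ILC1-like cells (percent, stacked to 100) with counts of both Itga1 and Rora, of Rora alone, of Itga1 alone or of neither, for each tissue and condition, with the number of cells in each bar. Itga1 without Rora takes 52.9% of the 51 cells in 14-day blood and 15.9% of the 63 cells in 14-day lung.

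Lung ILC1-like cells carried more transcripts of immediate early genes and of some homing genes than those of blood. By the 2-fold call, 95 of 4176 genes (2.27%) were higher in lung and 15 (0.359%) lower. In an edgeR quasi-likelihood fit with the library as a block, 199 of 6921 genes (2.88%) were higher and 28 (0.405%) lower at an adjusted p under 0.05, among them 92 of the 95 and 9 of the 15. The 3 pairs come from different conditions, and the p-values measure the spread between these libraries. Of 8 immediate early and heat shock genes tested, 6 were called higher in lung (Fos, Fosb, Jun, Junb, Nr4a1 and Nr4a2, list median log2 ratio 3.68 against -0.07 over all genes). Genes below 50 CPM in blood, such as Fos, reached the floor only through lung, where a higher call was close to fixed. The count and the median are thus a description. Junb was at 1574, 1687 and 1390 CPM in naive, 6 h and 14-day lung and at 102, 97.5 and 115 CPM in blood. Fos was at 322, 186 and 87.4 CPM in lung, at 12.2 CPM in 6 h blood and without a count in naive and 14-day blood. The tissues did not overlap for either gene, and both passed the edgeR test (log2 ratio 3.95, adjusted p = 1.56e-07 for Junb and 5.49, 4.17e-06 for Fos). Cells with none of the defining genes showed the same direction, with Junb at 996 CPM in lung and 217 CPM in blood by mean. By the same rule 78 of 3883 genes (2.01%) were called higher in lung in those cells and 2 (0.0515%) lower. Markers of other cell types differed between lung and blood ILC1-like cells as well. In the edgeR fit 4 of 6 myeloid and dendritic markers were higher in lung (Lyz2, H2-Aa, H2-Ab1 and Cd74). Of 10 T cell markers, 2 were lower in lung (Cd3g and Bcl11b). Lungs were digested with collagenase at body temperature while blood was kept cold, so tissue and preparation cannot be told apart.

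Of the genes of homing and adhesion, 4 of 18 tested were called higher in lung (Cxcr4, Rgs1, Rgs2 and Emb, against 2.27% of all genes). Cxcr4 reached the floor of 50 CPM only through lung, where a higher call was close to fixed, so the count is a description. By the 2-fold call none was lower (against 0.359%). In the edgeR fit 5 of 21 were higher, Cd69 besides these, and 1 was lower, Itga1 (against 2.88% and 0.405% of all genes). Emb (embigin), an adhesion molecule, was at 1602, 2155 and 1060 CPM in lung and at 489, 311 and 35.1 CPM in blood (edgeR log2 ratio 3.10, adjusted p = 0.000107). In cells with none, Emb was also called higher in lung, at 283 against 52.4 CPM by mean. Cxcr4 was at 172 CPM by mean in lung and 7.18 in blood, and at 169.7 and 17.4 CPM in cells with none. Ctla4 was at 154, 126 and 157 CPM in lung and at 0, 6.09 and 2.34 CPM in blood (edgeR adjusted p = 2.33e-06), while in cells with none it was at 4.85 CPM in lung and 1.73 in blood. Kit and Ahr were also called higher in lung, at 141 against 35.8 CPM and 149 against 41.2 CPM (edgeR adjusted p = 0.000494 and 0.000535). Both reached the floor of the 2-fold call only through lung. Ahr, the aryl hydrocarbon receptor, was at 34.2 against 6.46 CPM in cells with none.

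Of the 10 ILC1 genes outside the rule that were tested, 0 met the 2-fold call in either direction (median 0.56), a count that says little beside the 2.27% and 0.359% of all genes. In the edgeR fit 2 of 10, Rora and Gpr183, were higher in lung (against 2.88% of all genes) and 1, Itga1, was lower (against 0.405%). Itga1 was 2.13-fold higher in blood by mean (adjusted p = 0.0309), and the blood level lay above the lung level in each library. Without the block Itga1 did not pass (adjusted p = 0.106). In cells with none, Itga1 was lower in lung than in blood in the naive and 6 h libraries (log2 ratios -0.15 and -0.38) and higher in the 14-day library (2.46). Rora was 3.03-fold and Gpr183 4.47-fold higher in lung by mean (edgeR adjusted p = 0.000771 and 0.000752). Ncr1 was 2.06-fold higher in blood ILC1-like cells (edgeR adjusted p = 0.0257 with the block and 0.0857 without) and 1.77-fold in cells with none. Among genes called lower in lung, Gzmb (granzyme B) was at 266, 182 and 138 CPM in lung and at 636, 463 and 671 CPM in blood (edgeR adjusted p = 0.000818). Atp8a2, a phospholipid transporter, was at 69.9, 18.6 and 8.06 CPM in lung and at 307, 79.2 and 391 CPM in blood (edgeR adjusted p = 0.000114), and 42 of 51 cells of 14-day blood held it. In cells with none, Atp8a2 was at 2.99 CPM in lung and 3.03 in blood.

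**Figure D5:**
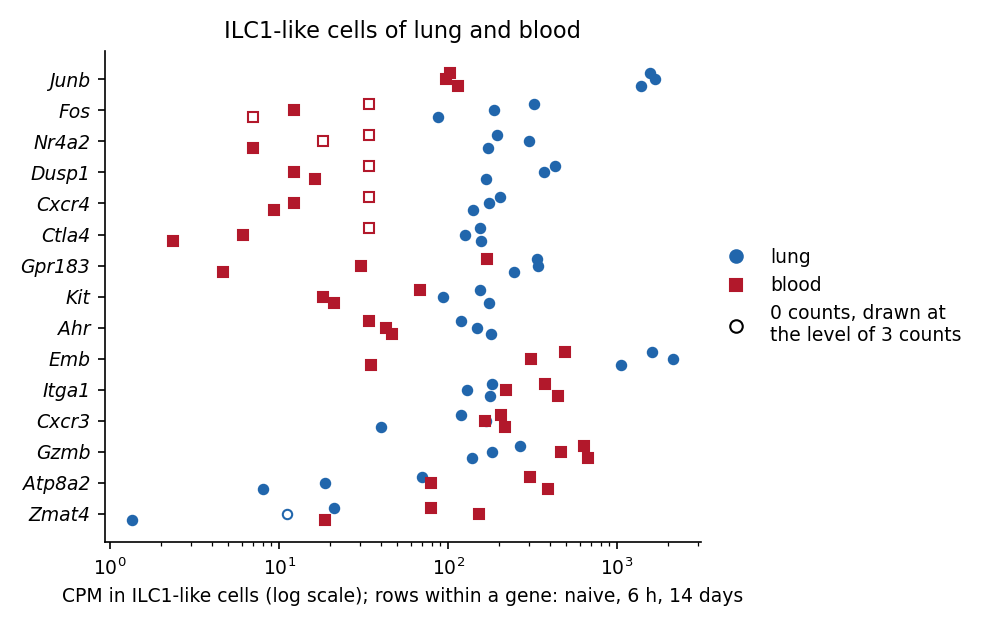
Level (CPM, log axis) of genes in ILC1-like cells of lung and blood, with 1 point per library. Open points are groups without a count, drawn at the level of 3 counts. Junb, Fos, Emb and Ctla4 lie higher in lung in all 3 libraries, and Gzmb and Atp8a2 higher in blood.

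Values at 6 h and 14 days are set beside the naive ones and were not tested, since each condition is 1 library and the naive groups hold 18 and 12 cells. In lung the summed level of the 16 NK maturation markers was 5756 CPM in naive, 2742 at 6 h (log2 ratio -1.07, 95% CI -1.22 to -0.92) and 2090 at 14 days (-1.46, -1.58 to -1.34). In blood the sums were 4442, 4276 (-0.05, -0.24 to 0.13) and 5545 CPM (0.32, 0.16 to 0.48). The lung sums lay below the naive one at both times. After thinning to 3000 UMIs the log2 ratios were -0.44 and -1.32 in lung and 0.64 and 0.95 in blood. Single cells weigh on the naive lung value, where 1 cell gave 35.0% of the Gzma counts and 1 cell 49.6% of those of Zeb2, a factor of NK cell maturation. Zeb2 was at 930 CPM in naive lung and at 70.6 and 113 CPM at 6 h and 14 days. In lung cells with exactly 3 of the 5 genes, Gzma was at 3434, 1063 and 1516 CPM in naive, 6 h and 14 days. With 4 genes Gzma was at 60.1, 813 and 554 CPM, and with 5 genes at 159, 1081 and 120 CPM. Gzma was thus lower at both times only with exactly 3 genes, where 11 of the 18 naive cells lay. In cells with none of the genes the sums of the 16 markers were 22533, 22082 and 17992 CPM in lung and 21985, 21494 and 24919 CPM in blood, so the blood sum was higher at 14 days in both groups of cells.

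In 14-day lung the genes with the largest ratios over naive included those of MHC class II given above, Gzmc, Cxcl10, Dscam, Jaml and Cish. Gzmc (granzyme C) was at 0, 63.2 and 786 CPM in naive, 6 h and 14-day lung, in 0, 5 and 18 cells, and 1 cell gave 36.8% of the 14-day counts. Cells with none were at 50.3 CPM of Gzmc at 14 days and 2.12 in naive lung. Cxcl10, an interferon-induced chemokine, was at 6.99, 37.2 and 257 CPM in lung, 1 cell giving 51.8% at 14 days. Dscam, an adhesion molecule of the immunoglobulin family, was at 21.0, 160 and 618 CPM in lung and found in 42 of 63 cells at 14 days, and it was at 125, 54.8 and 11.7 CPM in blood. Dscam was thus spread over most 14-day lung cells, unlike Gzmc and Cxcl10.

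The 15 interferon-stimulated genes summed to 434, 814 and 1089 CPM in ILC1-like cells of lung (list medians 0.77 at 6 h and 1.25 at 14 days, against -0.08 and -0.38 over all genes tested) and to 454, 694 and 634 CPM in blood (medians 0.72 and 0.48, against -0.05 and -0.13). In cells with none they summed to 403, 489 and 727 CPM in lung and to 465, 524 and 437 CPM in blood. The unused ILC1 markers had medians of 0.58 and 0.21 in lung and of -0.54 and 0.09 in blood. Tnfsf10 was at 28.0, 63.2 and 167 CPM in lung. Ltb was at 238, 446 and 788 CPM in lung and at 716, 621 and 634 CPM in blood. Inpp4b at 14 days over naive had a log2 ratio of 0.46 (0.16 to 0.77) in lung ILC1-like cells, while in lung cells with none it went from 10.2 to 137 CPM (3.75, 3.55 to 3.95). Itga1 showed a like pattern, with a log2 ratio of -0.04 (-0.65 to 0.63) in ILC1-like cells and 2.52 (2.32 to 2.72) in cells with none.

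Lower at 14 days in lung were Klf3, Itga2 (CD49b, the integrin of NK cells) and, chosen after its values were seen, Klf2, a transcription factor of circulating lymphocytes. Itga2 was at 525, 152 and 55.1 CPM in lung and at 216, 183 and 98.3 CPM in blood. Itga2 was lower in cells with none as well, at 858 CPM in naive and 376 in 14-day lung (log2 ratio -1.19, against -3.25 in ILC1-like cells). Klf2 was at 769, 316 and 90.04 CPM in lung and at 454, 530 and 157 CPM in blood, with log2 ratios at 14 days of -3.09 (-3.56 to -2.64) and -1.54 (-2.12 to -0.93). In cells with none, the log2 ratios of Klf2 were -1.22 in lung and 0.08 in blood. T cell markers had a median of 0.64 in 14-day over naive blood, with a sum of 2192 against 1363 CPM.

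ILC1-like cells of 14-day lung were also set beside the 517 cells of that tissue with counts of both Itga1 and Pmepa1 and none of the 5 genes. Pmepa1 is a target of TGF-beta signalling, and these cells share CD49a RNA with ILC1 by their definition. Their sum of the 16 NK maturation markers was 10110 CPM against 2090 in ILC1-like cells of the same tissue and library (log2 ratio -2.27, -2.35 to -2.20). Eomes was at 247 CPM in these cells and 21.5 in ILC1-like cells (-3.52, -4.33 to -2.82), and Klra8 at 808 and 84.7 CPM. Rora was at 34.9 CPM in these cells and 602 in ILC1-like cells (4.11, 3.84 to 4.38), Gpr183 at 18.0 and 245 CPM, and Kit at 28.0 and 175 CPM. Inpp4b was closer, at 309 and 980 CPM (1.66, 1.53 to 1.79). T cell markers differed as well, with Cd3d at 17.8 CPM in these cells and 57.8 in ILC1-like cells (1.70, 1.13 to 2.25), Cd3g at 21.1 and 65.9 CPM (1.64, 1.11 to 2.15) and Zbtb16 (PLZF) at 12.2 and 61.8 CPM (2.34, 1.74 to 2.93). Trdc, the T cell receptor delta constant gene, was at 79.8 CPM in these cells and 6.72 in ILC1-like cells (-3.57, -5.20 to -2.33). Among the 10 genes with the largest ratios, 7 were MHC class II and macrophage genes. Cd74 was at 3.78 CPM in these cells and 696 in ILC1-like cells, H2-Ab1 at 1.11 and 254 CPM, and C1qb, a complement gene of macrophages, at 1.11 and 68.5 CPM. A single ILC1-like cell gave 96.1% of the C1qb counts and another gene of the complex, C1qa, was found in 1 cell, while Cd74 was found in 15. Of the TGF-beta pathway genes that chose neither group, Tgfb1 was lower in ILC1-like cells, at 215 against 601 CPM (-1.48, -1.72 to -1.25), and the integrin gene Itgav higher, at 271 against 112 CPM (1.28, 1.04 to 1.52). Smad7 was at 347 CPM in the Itga1 and Pmepa1 positive cells and 296 in ILC1-like cells, and Tgfbr2 at 208 and 199 CPM. The Eomes level of the Itga1 and Pmepa1 positive cells was near the 236 CPM of all 14-day lung cells with none of the 5 genes.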

How the data were processed

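Live CD45+lin-NK1.1+NKp46+ cells were captured with 10x Genomics 3′ chemistry. The authors deposited raw UMI counts per gene and hashtag in every barcode, from Cell Ranger (7.1.0 per the file headers, 7.0.1 per the labels) on GRCm38.p6. Seurat 5.0 is named in the submitters' processing notes. Gene counts here are as deposited, and positions come from GENCODE on the same build. The libraries held 65508415 (naive), 70062766 (6 h) and 53423153 (14 days) UMIs, and 16, 11 and 7 kept barcodes were shared between naive and 6 h, naive and 14-day, and 6 h and 14-day libraries.

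Barcodes were kept with 800 to 5000 genes, at most 6% mitochondrial counts and 1 hashtag with at least 90% of tag counts. Tissues follow the order in which the methods list them with the tags (lung for B0304, blood for B0306), a reading the labels do not state. Doublets within a tissue stayed in. Values of some genes are not reported here. UMIs were summed per group of cells and scaled to CPM, and means over libraries weight each equally. A group at 0 was set to 3 counts for ratios, which are then bounds. Genes were called at 2-fold in all 3 libraries with at least 50 CPM. Lung and blood ILC1-like cells were compared with edgeR (4.0.16, R 4.3.3; TMM, quasi-likelihood, Benjamini-Hochberg) on 6 sums, 1 per library and tissue, with the library as a block because lung and blood were captured together in it, over genes with at least 30 UMIs in all, leaving 2 residual degrees of freedom. This fit was added after seeing the data. Conditions were not tested, since each is 1 library. Calls between conditions and against Itga1 and Pmepa1 positive cells were planned but are not given, because they would rest on cells of 1 library.

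The cells, the 18 gene lists (2 listed T cell genes are not in the files under the names used) and the tests were chosen with earlier results of these data known. Genes were named as examples of a list, as the 15 largest or smallest ratios against cells with none in each tissue, or as the 10 largest or smallest of 14 days over naive in lung. Mmp9 in lung, Dscam in blood, Klf2, Atp8a2, Zfp683 and genes of the comparisons of lung with blood and with Itga1 and Pmepa1 positive cells were picked after their values were seen. Steps were tested on simulated data. Alternatives changed the rule, depth, filters, totals, reference cells and libraries. Python 3.11.15, numpy 2.4.6, scipy 1.17.1, pandas 2.3.3 and matplotlib 3.10.9 were used.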

Additional observations from a re-analysis of the deposited data

Results flagged for a closer look

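Barcodes outside the comparisons held the defining genes as well. Of the 141 barcodes of the 14-day library that passed the gene and mitochondrial filters without a single hashtag, 7 (4.96%, 95% CI 2.02 to 9.96) had counts of 3 or more of the 5 genes, against 1 of 342 (0.292%) in the naive and 0 of 158 (up to 1.90%) in the 6 h library.

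Of 120 listed genes with counts in lung and blood ILC1-like cells of both conditions, 52 had 14-day over naive log2 ratios of opposite sign in the tissues. The genes below were picked from these by their counting intervals, which take UMIs and not mice as the unit, so the choice is no test, and the difference between the tissues was not tested. The naive groups hold 18 and 12 cells, and 1 cell gave 35.0% of the naive lung and 44.7% of the naive blood counts of Gzma and 48.6% of the naive blood counts of Klre1. The chemokine gene Ccl5 was at -1.56 in lung and 0.40 in blood, and Gzma at -1.46 and 0.49. In lung Gzma went from 3434 CPM in naive to 1516 at 14 days in cells with exactly 3 of the 5 genes. With 4 genes it went the other way, from 60.1 to 554 CPM, and with 5 genes from 159 to 120 CPM. The cytokine receptor gene Il27ra was at 1.43 and -1.28, the NK receptor gene Klre1 at -1.09 and 0.81, the T cell receptor constant gene Trbc2 at -0.66 and 0.61, and the chemokine gene Xcl1 at 1.64 and -0.37.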

How the results depend on the processing

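Thinned to 3000 UMIs, the shares were 0.167%, 0.280% and 0.763% in naive, 6 h and 14-day lung and 0.257% and 1.36% in 6 h and 14-day blood. With 2 or more of the 5 genes they were 1.17%, 1.39% and 3.38% in lung and 0.939%, 1.53% and 4.35% in blood, and with 4 or more 0.190%, 0.342% and 1.09% in lung and 0.114%, 0.364% and 1.55% in blood. With 2 or more of Il7r, Cd200r1 and Cxcr6 the naive blood share was 0.504% and the 6 h lung share 0.919%. Leaving out cells with an MHC class II count, chosen after seeing the data, gave 1.27% in 14-day lung. The 14-day share exceeded the naive one in both tissues under each of these. Against cells with none of the genes, thinning lowered the genes called lower to 35 in lung and 44 in blood, and a floor of 20 CPM raised those called higher to 134 and 174. Leaving out 1 library asks for agreement in fewer libraries: 93 to 129 genes were then called higher and 60 to 90 lower in lung, and 119 to 145 higher and 89 to 118 lower in blood, with the most lower in lung (90) without the naive library and the most higher in lung (129) and lower in blood (118) without the 14-day library. Between lung and blood, thinning left 36 genes higher in lung. Leaving out 1 library there gave 132 to 184 higher and 68 to 75 lower, 68 without the naive or the 6 h library and 184 and 75 without the 14-day library. Log2 ratios of the summed NK maturation markers over naive after thinning were -0.44 (6 h) and -1.32 (14 days) in lung and 0.64 and 0.95 in blood, so the 6 h blood value changed side. With totals that leave out mitochondrial and ribosomal genes the 14-day lung value was -1.19. Of 875 values of single genes under an alternative, 874 kept their sign, the exception being H2-Eb1 at 14 days over naive in lung, at -1.87 without cells with an MHC class II count. The genes were named for large ratios, so a kept sign was close to fixed. Thinning moved 16 of 30 ratios over cells with none by over 1.5-fold in lung and 22 of 29 in blood. It moved 16 of 26 ratios of lung over blood and 11 of 14 of 14 days over naive in lung. Leaving out the naive library moved 13 of 30 ratios of lung over blood. The edgeR fit of lung over blood with the library as a block, chosen after seeing the data, called 199 genes higher and 28 lower in lung, 133 and 12 without the block, and 121 to 250 and 16 to 60 when 1 library was left out, fewest without the 6 h library and most without the naive one. Depth limits the naive groups most, with 142979 UMIs in lung and 88022 in blood ILC1-like cells.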
